A study of Mus musculus with 6 samples.

Results

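The genes described here encode 37 enzymes that make, recycle or degrade purine nucleotides, pyrimidine nucleotides and the deoxynucleotides (dNTPs) of DNA, chosen by symbol from a fixed list. A gene was measured where a probe set of the array carried that symbol alone, and the brightest such probe set stood for it. This gave 36 of the 37 genes, out of 18193 genes tested in all, and Impdh2 was not analysed here. All cells were Ba/F3, an established mouse pro-B line that needs interleukin-3, transduced with the SPAG9-JAK2 fusion in a Tet-On system. SPAG9-JAK2 fuses SPAG9, a scaffold for signalling proteins, to the cytokine receptor kinase JAK2. The 3 induced arrays held cells kept with 500 ng/ml doxycycline for 48 hours, and the 3 uninduced arrays held the same transduced cells without doxycycline for the same time. No array held doxycycline-treated cells without the fusion, so an effect of doxycycline and one of the fusion cannot be told apart.

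Cells build purines stepwise on phosphoribosyl pyrophosphate (PRPP) until inosine monophosphate (IMP) is complete, and IMP is then turned into the adenine and guanine nucleotides. Pyrimidines are made as a free ring that is joined to PRPP to give uridine monophosphate. Ribonucleotide reductase converts ribonucleotides to deoxynucleotides, thymidylate synthase makes the thymine nucleotide with folate cofactors, and salvage enzymes recover bases and nucleosides that breakdown enzymes would otherwise remove. Dividing blood cells draw on these routes for RNA and for DNA replication.

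Most of these genes had more signal in induced cells, by moderate amounts. Of the 36 measured genes 27 had a positive difference, as did 44.1% of all genes and 46.6% of bright ones, and the median difference was 0.47, against -0.058 over all 18193 genes and -0.033 over the 9097 bright genes, those whose mean level reached the median of all genes, among which all 36 lay. Differences are of log2(signal + 16), induced minus uninduced, and are given ± SE from limma, a linear model fitted to every gene. In 14 genes (Prps1, Gart, Adsl, Gmps, Umps, Tyms, Mthfd1, Rrm1, Rrm2, Nme1, Tk1, Dck, Ada and Pnp) every induced array lay above every uninduced array, a pattern held by 10.7% of all genes and 16.9% of bright genes. The opposite separation was seen in 3 genes, Cda, Rrm2b and Tk2, and held by 13.4% of all genes and 18.9% of bright ones. The median was 0.49 for the 11 purine de novo genes, 0.39 for the 5 pyrimidine de novo genes, 0.53 for the 11 dNTP genes and 0.17 for the 9 salvage and breakdown genes. Single arrays moved 2 of these medians by over 1.5 times: the pyrimidine median was 0.62 without uninduced replicate 1, and the salvage and breakdown median was 0.28 without induced replicate 1 and 0.11 without induced replicate 3.

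In limma 1 of the 36 genes passed an adjusted p of 0.05, with Benjamini-Hochberg adjustment over all genes, a threshold that 0.187% of all genes passed, 0.115% higher and 0.0715% lower. That gene was Cda, which fell. None rose at that threshold in limma, and 15 had a positive difference at an unadjusted p under 0.05, as did 7.14% of all genes and 10.8% of bright ones, while 3 had a negative one, as did 10.3% and 14.1%. Without uninduced replicate 1, 11 of the genes rose and 1 fell, where 7.99% of all genes passed, 3.22% higher and 4.77% lower. The 11 were Ppat, Gart, Pfas, Adsl, Atic, Tyms, Mthfd1, Dctd, Nme1, Ada and Pnp. Without both replicate 1 arrays the same genes except Ppat rose and Cda fell, where 8.12% of all genes passed, 2.88% higher and 5.24% lower. With any single array other than uninduced replicate 1 left out, 0 of the 36 genes passed, where from 0 to 12 of all genes did.

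**Figure D1:**
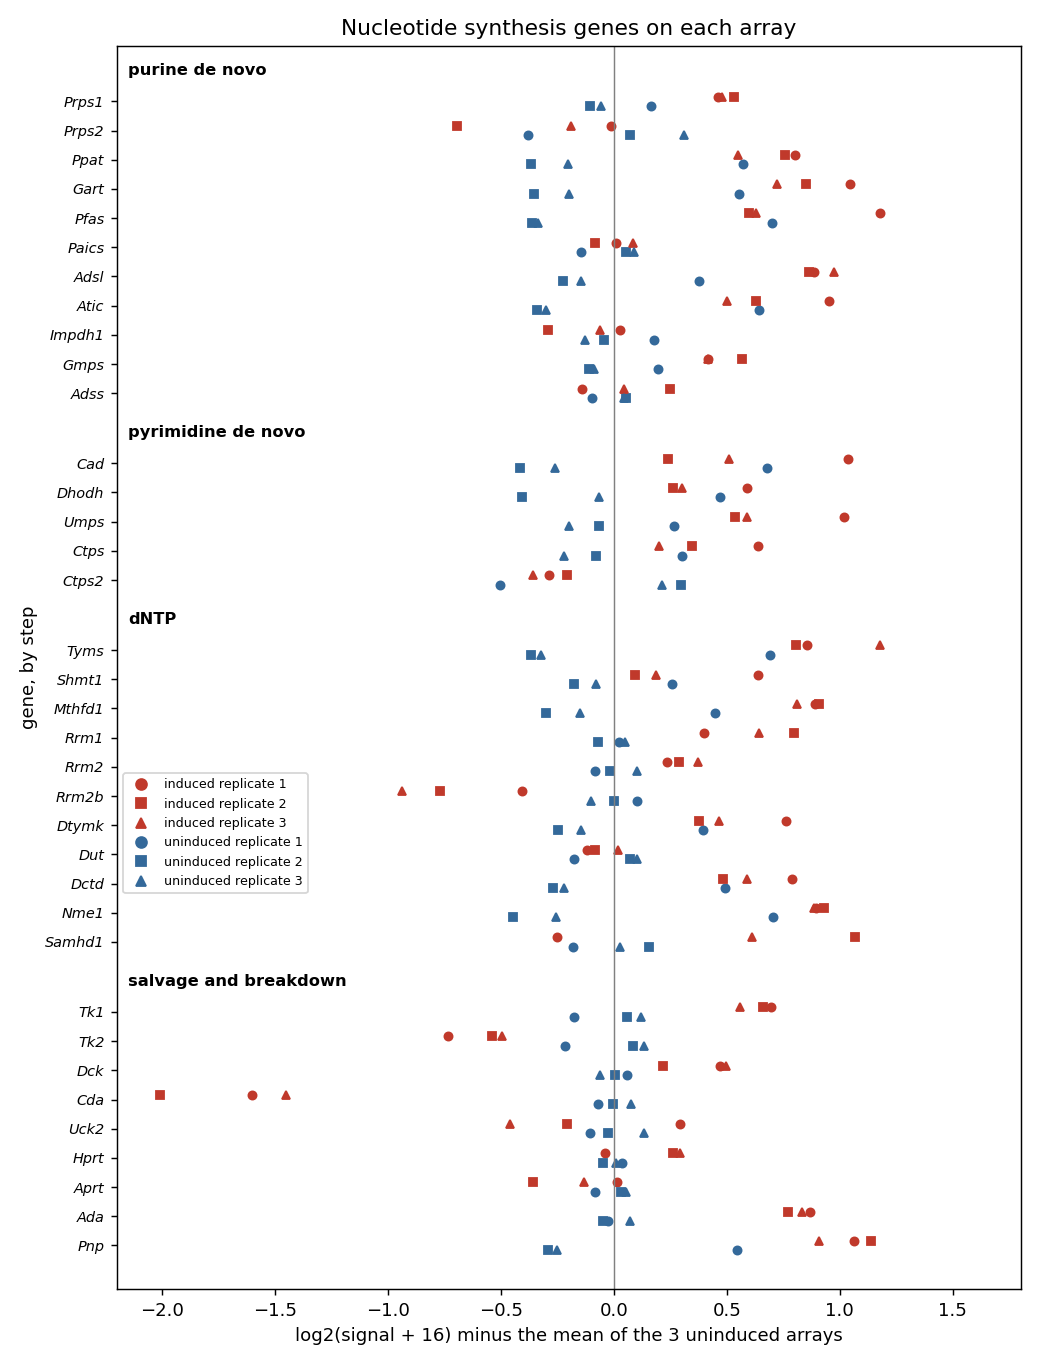
Level of each of the 36 genes on each array, as log2(signal + 16) minus the mean of the gene's 3 uninduced arrays, grouped by step (red above, induced; blue below, uninduced; circle, square and triangle for replicates 1, 2 and 3). In 27 of the 36 genes the blue circle of uninduced replicate 1 is the blue symbol nearest to the induced side, and Cda has the red symbols farthest to the left.

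Uninduced replicate 1 stood apart from the other uninduced arrays. Over bright genes its log2 differences from uninduced replicates 2 and 3 had SDs of 0.68 and 0.64, against 0.20 between those 2 arrays. Induced replicate 1 also stood apart, by less, with SDs of 0.49 and 0.47 from induced replicates 2 and 3, against 0.26 between those 2. In 27 of the 36 genes uninduced replicate 1 was the uninduced array nearest to the induced side, as it was in 64.3% of bright genes. Each gene was therefore also compared within the replicate 1 pair of arrays and between replicates 2 and 3 of each group, and the median over the 36 genes was 0.30 for the pair and 0.55 for the others. Arrays of the same number deviated together, but so did replicates 2 and 3 across numbers (correlations of 0.30 for induced 3 with uninduced 2 and 0.19 for induced 2 with uninduced 3). With the number as a block 0 of the 36 genes passed in limma (20 at an unadjusted p under 0.05), where 0% of all genes did, and Cda had an adjusted p of 0.198. The fusion transcript itself was not checked, because the sources used here do not give its species or the part that the mouse Jak2 and Spag9 probe sets cover. Those probe sets differed by -0.54 ± 0.41 and -0.92 ± 0.33. Within the replicate 1 pair they stood at 0.28 for Jak2 and -0.0016 for Spag9, and between replicates 2 and 3 at -0.96 and -1.37. Of 14 measured B-lineage marker genes 8 lay at or below the 90th percentile of liver and brain genes that stood for silent ones, Cd79a, Ebf1 and Rag1 among them. Cd79b averaged 8.59 on the log2 scale, and Ptprc and the interleukin-3 receptor gene Csf2rb averaged 13.38 and 13.80. Of 8 measured erythroid and megakaryocyte markers 3 lay at or below that percentile, whereas Gata1, Klf1 and Itga2b averaged 11.37, 11.49 and 11.45.

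Markers of DNA replication also had more signal in induced cells, though 0 of them passed in limma. At an unadjusted p under 0.05, 16 were higher, as were 7.14% of all genes and 10.8% of bright ones. Without uninduced replicate 1, 11 of these markers rose past the limma threshold, as did 3.22% of all genes. The 25 measured S phase genes had a median difference of 0.63, 24 of them positive and 20 with every induced array above every uninduced array. The 17 mitosis genes had a median of 0.25, with 6 so separated. That separation was held by 10.7% of all genes and 16.9% of bright ones. Per array, the median S phase deviation from the uninduced mean was 0.77, 0.67 and 0.61 on induced arrays and 0.21, -0.16 and -0.054 on uninduced arrays. Granulocyte and monocyte markers had a median difference of -1.23 over 15 genes, 4 of which lay at or below the level of silent genes, and their median deviation was -1.82, -1.13 and -0.46 on induced arrays against -1.02, 0.55 and 0.30 on uninduced arrays. The part of these shifts in the results below was not tested, and in such bulk samples fewer cells of a type and less RNA per cell cannot be told apart. Myc, a transcription factor that drives nucleotide genes, stood at -0.082 ± 0.17. The transcription factor gene E2f1, the only negative gene of the S phase list, stood at -0.35 ± 0.25.

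**Figure D2:**
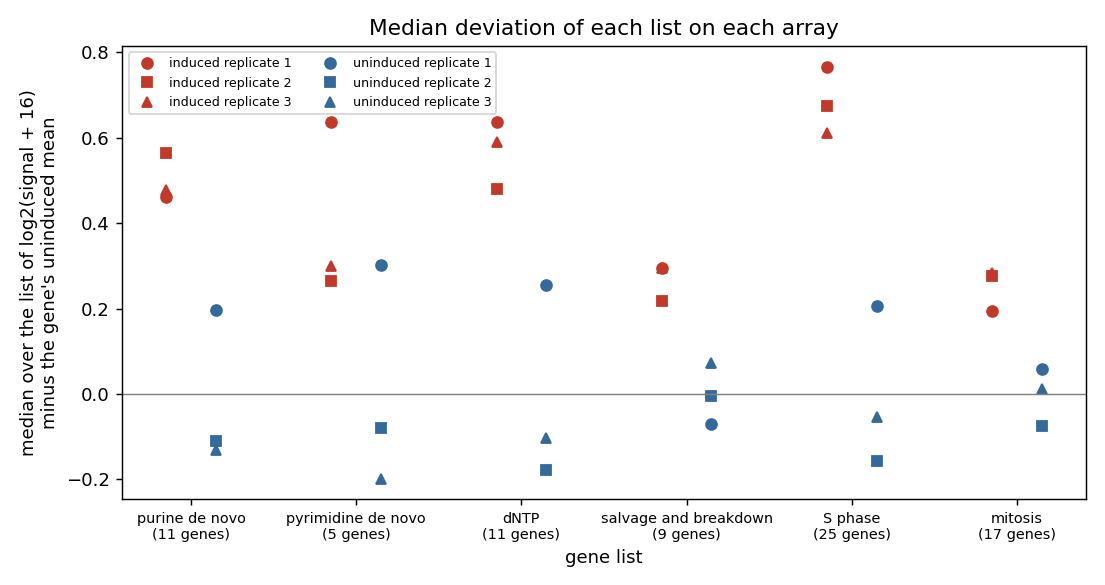
Median over each gene list of log2(signal + 16) minus the gene's uninduced mean, for each array (red left, induced; blue right, uninduced). The purine, dNTP, salvage, S phase and mitosis lists have all 3 induced arrays above all 3 uninduced arrays, and in the pyrimidine list uninduced replicate 1 (0.30) reaches the lower induced arrays (0.26 and 0.30).

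The purine de novo route begins with PRPP. Prps1, which encodes a PRPP synthetase, had signals of 3734, 3921 and 3773 on induced arrays, against 3033, 2515 and 2603 on uninduced arrays. The groups did not overlap, and the difference was 0.49 ± 0.15 (95% interval 0.12 to 0.86). Its paralog Prps2 had 3035, 1882 and 2682 on induced arrays, against 2345, 3215 and 3795 on uninduced arrays, with overlap and a difference of -0.30 ± 0.27. The 2 other bright Prps2 probe sets gave 0.11 and 0.54, so the direction for Prps2 depends on the probe set.

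Ppat, the amidotransferase that commits PRPP to purine synthesis, had signals of 2602, 2518 and 2180.1 on induced arrays, against 2213, 1146 and 1288 on uninduced arrays. Uninduced replicate 1 reached into the induced range, and the difference was 0.70 ± 0.27, made up of 0.23 within the replicate 1 pair and 0.94 between replicates 2 and 3. Gart, a trifunctional enzyme of the following steps, had 2901, 2536 and 2317 on induced arrays, against 2059, 1092 and 1215 on uninduced arrays. Here the groups were separate, the difference was 0.87 ± 0.27, and the 3 other bright probe sets gave from 0.81 to 1.27. Pfas, the amidotransferase of the next step, stood at 0.80 ± 0.34 with 1 uninduced array, replicate 1, inside the induced range.

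Adsl, adenylosuccinate lyase, which acts both on the way to IMP and on the way from IMP to AMP, showed the largest difference of the purine de novo genes. Its signals were 2648, 2611 and 2819 on induced arrays, against 1856, 1218 and 1287 on uninduced arrays. All induced arrays lay above all uninduced arrays, the difference was 0.91 ± 0.21 (1.87-fold on this scale), and the adjusted p was 0.132. Atic, which closes the ring to IMP, had 6922, 5528 and 5047 on induced arrays, against 5584, 2813 and 2889.6 on uninduced arrays. The low uninduced arrays were replicates 2 and 3, replicate 1 overlapped the induced arrays, and the difference was 0.69 ± 0.31.

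Paics, a bifunctional enzyme in the middle of the same route, stood near 0. It had the brightest signal of the purine genes' probe sets, 13579.8 ± 788 (SD, n = 3) in induced and 13582 ± 1168 (SD, n = 3) in uninduced cells. The groups overlapped fully and the difference was 0.0018 ± 0.16, with a 95% interval of -0.37 to 0.38. Its other 2 bright probe sets stood at -0.22 and -0.022.

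After IMP the route splits into guanine and adenine branches, the second of which also uses Adsl. Gmps, GMP synthetase, had 5519.9, 6118 and 5515 on induced arrays, against 4737, 3829 and 3887 on uninduced arrays. These did not overlap, and the difference was 0.47 ± 0.16, but 2 dimmer Gmps probe sets gave -0.37 and -0.34. Impdh1, an isoform of the dehydrogenase that leads to GMP, stood at -0.11 ± 0.17 (95% interval -0.53 to 0.31), and Adss, adenylosuccinate synthase of the AMP branch, at 0.051 ± 0.17 (95% interval -0.36 to 0.46), both with overlapping groups.

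Of the 5 pyrimidine de novo genes, 4 had a positive difference and 1 had separate groups. Cad, which encodes the trifunctional protein of the first steps, had signals of 1989, 1139 and 1374 on induced arrays, against 1546, 716 and 799 on uninduced arrays. Replicate 1 was the brightest array of each group, the groups overlapped, and the difference was 0.60 ± 0.36. Dhodh, the mitochondrial dehydrogenase of the next step, stood at 0.38 ± 0.26, and its other bright probe set at 0.04.

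Umps, which attaches the ring to ribose phosphate and yields UMP, was the separated gene. Its signals were 2515, 1796 and 1864 on induced arrays, against 1485, 1177 and 1072 on uninduced arrays. The difference was 0.72 ± 0.21, with 0.75 within the replicate 1 pair and 0.70 between replicates 2 and 3. The CTP synthetase genes stood at 0.39 ± 0.21 for Ctps and -0.28 ± 0.25 for Ctps2, and both overlapped. Ctps2 had 1326, 1402 and 1265 on induced arrays, against 1139, 1995 and 1881 on uninduced arrays, of which replicate 1 was the lowest of all.

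Among the dNTP genes, the subunits of ribonucleotide reductase lay on different sides of 0. Rrm1, the large subunit, had signals of 8288, 10934 and 9828 on induced arrays, against 6386, 5984 and 6505 on uninduced arrays. Every induced array was higher, and the difference was 0.61 ± 0.17 (1.53-fold), with an adjusted p of 0.165. Rrm2, the small subunit of S phase cells, had 7840.1, 8115 and 8627 on induced arrays, against 6269.8, 6567 and 7149 on uninduced arrays. The groups were separate by a small margin, and the difference was 0.30 ± 0.15. Its other probe sets gave 0.25 and 0.87, and the one used may read related sequences, since its name ends in _x_at.

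Rrm2b, the small subunit that p53 can induce and that serves cells outside S phase, lay lower in induced cells. Its signals were 578, 446 and 395 on induced arrays, against 830.2, 771 and 718 on uninduced arrays. No induced array reached the lowest uninduced one, the difference was -0.70 ± 0.19 (95% interval -1.17 to -0.24), and the adjusted p was 0.16. Its other bright probe set stood at -0.45, but the mean of all 4 Rrm2b probe sets, including 2 below the median level, stood at -0.029.

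The thymidylate genes all had a positive difference. Tyms, thymidylate synthase, had signals of 209.5, 202 and 267 on induced arrays, against 186, 80.7 and 83.8 on uninduced arrays. Uninduced replicate 1 lay just below the induced arrays and far above the other uninduced ones, and the difference was 0.95 ± 0.32 (0.16 within the replicate 1 pair and 1.34 between replicates 2 and 3). Mthfd1, a trifunctional folate enzyme that feeds thymidylate and purine synthesis, had 3745, 3791 and 3552 on induced arrays, against 2756, 1635 and 1816 on uninduced arrays. Its groups were separate, its difference was 0.87 ± 0.23, and its 2 other bright probe sets gave 0.90 and 1.09. Shmt1, the cytosolic serine hydroxymethyltransferase, stood at 0.31 ± 0.22 in its brightest probe set, which may be shared with other transcripts, and at 0.62 to 1.11 in 3 others.

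Enzymes that phosphorylate or clear dNTP precursors were mixed. Nme1, a nucleoside diphosphate kinase, had 7926, 8120.3 and 7872 on induced arrays, against 6938, 3115 and 3552 on uninduced arrays. All induced arrays were higher, but only narrowly above uninduced replicate 1, so that the difference of 0.90 ± 0.31 came to 0.19 within the replicate 1 pair and 1.26 between replicates 2 and 3. Its other bright probe set, at 1.11, had overlapping groups, with uninduced replicate 1 the highest of all arrays. Dtymk, thymidylate kinase, stood at 0.53 ± 0.23 and Dctd, dCMP deaminase, at 0.62 ± 0.25, each with uninduced replicate 1 inside the induced range. Dut, which removes dUTP, stood at -0.063 ± 0.16 with a 95% interval of -0.45 to 0.32.

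Samhd1, a dNTP hydrolase that is also induced by interferon, varied more among induced arrays than between the groups. It had 1744, 4382 and 3187 on induced arrays, against 1837, 2319.9 and 2122 on uninduced arrays. Induced replicate 1 was the lowest of all 6 arrays, the difference was 0.47 ± 0.34, and 2 other bright probe sets gave -0.66 and 0.18, so neither size nor direction was settled.

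In the salvage and breakdown group Cda changed most. Cda, cytidine deaminase, which converts cytidine and deoxycytidine to uridine and deoxyuridine, lies at chr4:138338528-138368311 (GRCm38.p6). Its signals were 81.7, 57.8 and 92.8 on induced arrays, against 267, 280.2 and 297 on uninduced arrays. Every induced array lay far below every uninduced one, and the means were 77.4 ± 17.9 (SD, n = 3) in induced and 281 ± 15.2 (SD, n = 3) in uninduced cells. Cda fell by 1.69 ± 0.19 on the log2 scale (3.22-fold lower) and its adjusted p in limma was 0.0475. Within the replicate 1 pair it stood at -1.53, and between replicates 2 and 3 at -1.77. Over 18 alternative settings it ranged from -1.87 to -1.30 with adjusted p in limma from 0.0084 to 0.276. The lowest came from the fit restricted to bright genes, a level that Cda reached only through its uninduced arrays. Cda passed in 7 of the settings, but not without any single one of the 5 arrays other than uninduced replicate 1.

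Pnp and Ada act in succession in purine breakdown, and neither passed in limma. Pnp, purine nucleoside phosphorylase, had 7628, 8032 and 6839 on induced arrays, against 5316, 2971 and 3054 on uninduced arrays. Its groups were separate, with uninduced replicate 1 between the others, and its difference of 1.04 ± 0.26 (2.05-fold) was the largest positive one of the 36 genes, with an adjusted p of 0.148. Ada, adenosine deaminase, which feeds inosine to that enzyme, had 857, 799 and 835 on induced arrays, against 454, 446 and 486 on uninduced arrays. Arrays within each group were close together, and the difference was 0.82 ± 0.14 (1.77-fold), 0.89 within the replicate 1 pair and 0.79 between replicates 2 and 3, with an adjusted p of 0.0906.

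The thymidine kinase genes had differences of opposite sign, and neither passed in limma. Tk1, the thymidine kinase of S phase cells, had 3309, 3230.4 and 3003 on induced arrays, against 1798, 2121 and 2216 on uninduced arrays. Tk2, the mitochondrial thymidine kinase, had 161, 186 and 193 on induced arrays, against 238, 297 and 307 on uninduced arrays. Both genes had separate groups, with differences of 0.64 ± 0.16 and -0.59 ± 0.17 and adjusted p of 0.147 and 0.185. Dck, deoxycytidine kinase, stood at 0.39 ± 0.16 with separate groups, and its other 2 bright probe sets gave 0.42 and 0.79.

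The base salvage enzymes and Uck2 showed small differences in the probe sets used. Hprt, which recovers hypoxanthine and guanine, stood at 0.17 ± 0.16 (95% interval -0.22 to 0.57), and Aprt, which recovers adenine, at -0.16 ± 0.17 (95% interval -0.56 to 0.24). Uck2, a uridine-cytidine kinase, stood at -0.13 ± 0.23 in its brightest probe set and from -0.48 to 0.72 in 4 others. The groups overlapped in all 3 genes in the probe sets used, but the Uck2 probe set at 0.72 had every induced array above every uninduced one.

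Under 2 other settings of the model 6 genes passed. With the fit restricted to bright genes, Adsl, Rrm1, Tk1, Ada and Pnp rose and Cda fell. In that fit 8.16% of those genes passed, 3.55% higher and 4.61% lower. Cda reached the median level of 6.88 only through its uninduced arrays (mean 8.22, against 6.53 in induced cells). Its call there therefore adds no support. With a trended and robust variance the counts were also 5 higher and 1 lower, where 3.02% of all genes passed, 1.3% higher and 1.72% lower.

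**Figure D3:**
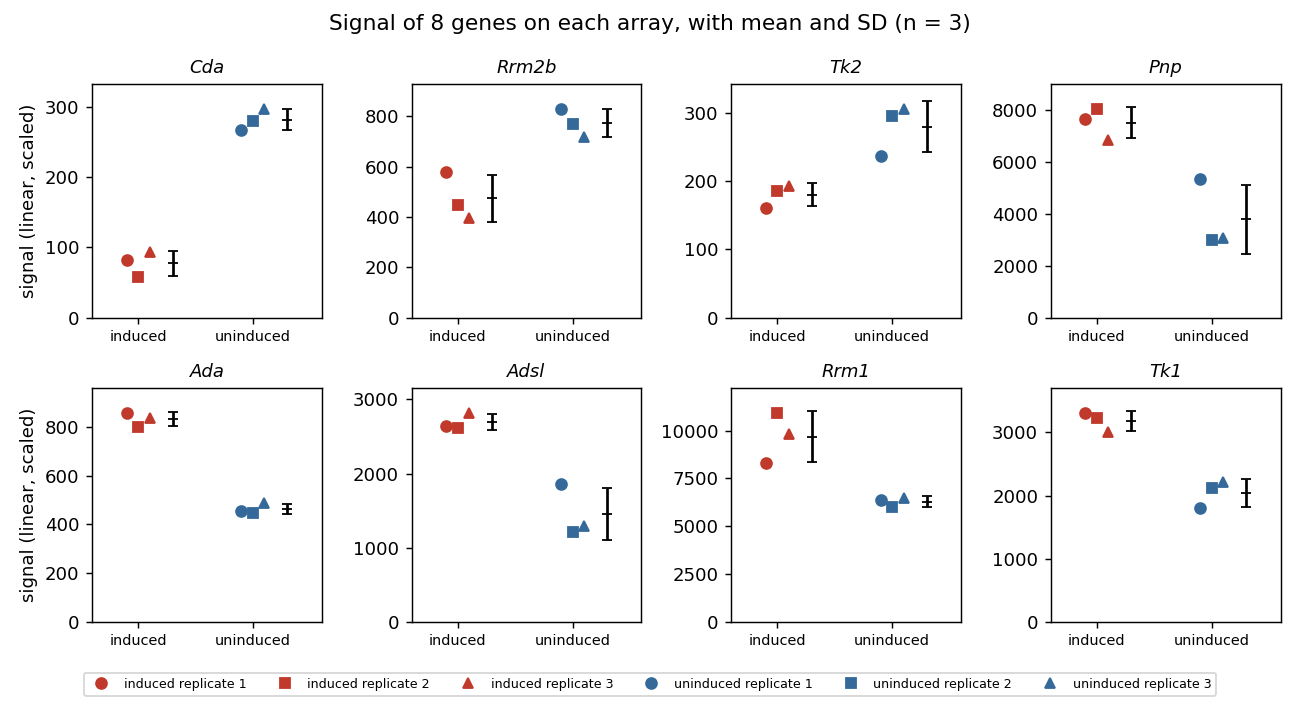
Linear signals of 8 genes on each array (symbols by replicate), with the mean and SD of each group (n = 3) in black and axes from 0. Cda, Rrm2b and Tk2 have all induced arrays below all uninduced ones, and Pnp, Ada, Adsl, Rrm1 and Tk1 the reverse.

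For 5 pairs of related or neighbouring genes the difference between their changes was tested over the arrays, with an exact permutation test (two-sided, smallest possible p of 0.1). Tk1 and Tk2 differed by 1.23 and Rrm2 and Rrm2b by 1.003, each with no overlap between the groups in the within-array difference and an exact p of 0.1. Prps1 and Prps2 differed by 0.79 (exact p of 0.2), Ctps and Ctps2 by 0.68 (exact p of 0.3) and Ppat and Paics by 0.70 (exact p of 0.2), with overlap in each. Within the replicate 1 pair these last 3 differences were -0.071, 0.12 and 0.079, and between replicates 2 and 3 they were 1.22, 0.96 and 1.01. Adjusted over the 5 pairs, the exact p-values were 0.25 to 0.3.

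Other probe sets of the same genes mostly pointed the same way. Of the 36 genes 21 had further bright probe sets, 37 in all, and 28 of the 37 had the sign of the probe set used. The 9 exceptions belonged to 5 genes, Prps2, Paics, Gmps, Samhd1 and Uck2. Genes whose further bright probe sets all gave larger differences than the one used included Ppat, Atic, Shmt1, Mthfd1, Rrm1 and Nme1. For Nme1 that further probe set had overlapping groups. The further bright probe sets of Umps, Dhodh, Rrm2b and Aprt all gave differences smaller in size.

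**Figure D4:**
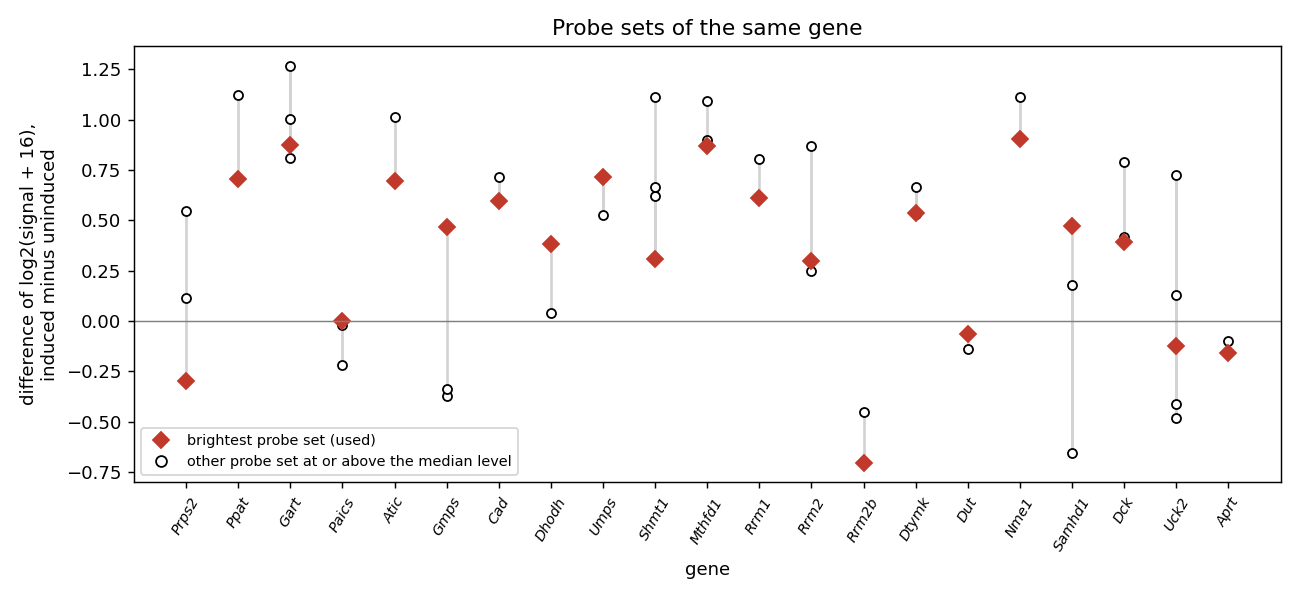
Difference of log2(signal + 16), induced minus uninduced, of each bright probe set, for the 21 genes with more than 1 such probe set (red diamond, the brightest, which was used; open circles, the others). Most circles lie on the same side of 0 as the diamond, and Gmps, Samhd1, Prps2 and Uck2 span 0.

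Promoter sequence was examined for motifs tied to growth, cytokine and S phase transcription factors. The 250 bases before each annotated start (RefSeq, GRCm38.p6) were available for 34 of the 37 genes, in 41 windows, and were searched on both strands for CACGTG, the E-box that MYC binds, for TTCNNNGAA, the form that STAT factors bind, and for TTTNGCGC, a form that E2F factors bind. The E-box was in 7 of the 41 windows (17.1%), against 6.02% of all 32851 windows, the STAT form in 4 (9.76%, against 7.02%) and the E2F form in 0 (against 1.13%). A match describes these letters alone and shows no binding. The following windows are shown because they hold an E-box in a measured gene, with the E-box in capitals.
Atic: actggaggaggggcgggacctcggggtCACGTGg
Dtymk: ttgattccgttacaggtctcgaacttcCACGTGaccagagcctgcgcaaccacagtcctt
Tyms: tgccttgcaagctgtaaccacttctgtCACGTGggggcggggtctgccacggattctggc
Nme1: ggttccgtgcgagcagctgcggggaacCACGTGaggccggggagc
Paics: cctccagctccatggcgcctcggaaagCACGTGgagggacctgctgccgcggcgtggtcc
They lie at chr1:71557122-71557155 on the plus strand (Atic), chr1:93802050-93802109 on the minus strand (Dtymk), chr5:30073654-30073713 on the minus strand (Tyms), chr11:93968273-93968317 on the minus strand (Nme1, the first of 2 windows with an E-box) and chr5:76951072-76951131 on the plus strand (Paics). Of these 5 genes Atic, Dtymk, Tyms and Nme1 had differences of 0.69, 0.53, 0.95 and 0.90, and Paics of 0.0018.

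The windows with the STAT form are shown because the fusion carries a JAK kinase, whose usual substrates are STAT factors, with the motif in capitals.
Ada: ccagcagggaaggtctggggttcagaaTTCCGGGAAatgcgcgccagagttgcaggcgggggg
Adsl: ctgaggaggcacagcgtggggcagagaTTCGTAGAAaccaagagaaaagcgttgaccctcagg
Samhd1: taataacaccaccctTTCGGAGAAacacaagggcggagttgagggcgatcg
Paics: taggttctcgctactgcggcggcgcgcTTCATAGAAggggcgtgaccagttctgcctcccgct
They lie at chr2:163750294-163750356 on the minus strand (Ada), chr15:80948335-80948397 on the plus strand (Adsl), chr2:157135296-157135346 on the minus strand (Samhd1) and chr5:76951211-76951273 on the plus strand (Paics). Ada and Adsl, with differences of 0.82 and 0.91, were among the separated genes, and Samhd1 and Paics, with 0.47 and 0.0018, were not. The Paics window lies within the annotated Ppat gene, since the 2 genes run in opposite directions and their annotated starts overlap by 277 bases. The window before an annotated start of Cda, the gene that fell, is shown in full (chr4:138367956-138368205, minus strand) and held none of the 3 motifs. It lies within the annotated Cda gene, which runs to 138368311, so the bases before that outer end were not searched.
Cda: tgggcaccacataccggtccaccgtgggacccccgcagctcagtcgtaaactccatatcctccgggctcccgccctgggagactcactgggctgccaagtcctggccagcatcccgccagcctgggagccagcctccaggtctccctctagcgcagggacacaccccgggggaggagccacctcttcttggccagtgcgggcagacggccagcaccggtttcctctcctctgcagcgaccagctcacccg

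Further genes of nucleotide metabolism were taken from a list of 74, of which 61 were measured, 34 with a positive and 27 with a negative difference (median 0.091). None passed over all genes in limma, 7 were higher and 5 lower at an unadjusted p under 0.05, as were 7.14% and 10.3% of all genes. Without uninduced replicate 1, 3 rose and 5 fell, as did 3.22% and 4.77% of all genes. The 12 measured folate and one-carbon genes had a median of -0.12, the 12 nucleotide kinases -0.22, the 11 other salvage genes -0.038 and the 26 other breakdown and pool-cleaning genes 0.23. The difference between these lists and the 36 genes was not tested.

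Among those named by the smallest p, 2 adenylate kinase genes lay lower. Ak1, the cytosolic form, had signals of 338, 325 and 335 on induced arrays, against 516, 969 and 1005 on uninduced arrays. Ak4, a mitochondrial form, had 1019, 903 and 755 on induced arrays, against 1089, 4367 and 3873 on uninduced arrays. Both had separate groups, with differences of -1.22 ± 0.28 and -1.56 ± 0.53, but for Ak4 the difference was -0.095 within the replicate 1 pair and -2.29 between replicates 2 and 3. Nme7, of the nucleoside diphosphate kinase family, stood at -0.99 ± 0.19 and Nme6 at 0.47 ± 0.17.

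Genes of this list with a positive difference included pool-cleaning enzymes and carriers, and none passed in limma. Nudt1, which hydrolyses oxidised purine nucleotides, stood at 0.58 ± 0.19, and Itpa, which hydrolyses inosine triphosphate, at 0.70 ± 0.24. Nt5c2, a cytosolic nucleotidase, stood at 0.66 ± 0.17, Slc29a3, a nucleoside transporter of internal membranes, at 0.86 ± 0.18, and Slc25a32, the mitochondrial folate carrier, at 0.95 ± 0.33. All 5 had separate groups, and Slc25a32 stood at 0.039 within the replicate 1 pair and 1.41 between replicates 2 and 3. Nt5c1b, at -0.89 ± 0.22, had mean signals of 2.66 ± 1.46 in induced and 19 ± 7.77 in uninduced cells (SD, n = 3 each), near those of silent genes.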

How the data were processed

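Total RNA of 6 Ba/F3 cultures was hybridised to 6 Affymetrix mouse arrays, and arrays were grouped by their titles. The authors deposited linear signal intensities made with Affymetrix Expression Console 1.4.1, per the submitters' processing notes. How probes were summarised is not stated in the labels. Each array has a trimmed mean of 500.0 when 2% of values is dropped at either end, and array medians run from 46.3 to 63.8. Cultures were seeded in triplicate, so p-values reflect only the variation between these cultures. Precision is limited by how few arrays there are.

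The deposited intensities were converted to log2(signal + 16) after removal of 64 control probe sets. Among 45101 probe sets, 34945 carried a single gene symbol in the platform annotation, 932 carried several and 9160 carried none. Single-symbol probe sets were kept, and for each gene the one with the highest mean was used, which gave 18193 genes. Of the 34945 single-symbol probe sets, 34741 had an Entrez number listed for GRCm38.p6, and 0 changed name. The groups were tested with limma 3.58.1 in R 4.3.3 (two-sided, adjusted p threshold of 0.05). The procedure was also run on simulated data with independent noise on each array. That run does not cover arrays that deviate together, as same-numbered arrays did here. The members and lists were chosen with earlier results of these data known. All members are named, and from the other nucleotide genes the 10 with the smallest p.

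Same-numbered arrays deviated together, with correlations of 0.36, 0.19 and 0.33 for numbers 1, 2 and 3. The labels do not say that a number marks a pair, so the main fit used no pairing and the replicate block was an alternative. Induced 3 with uninduced 2 (0.30) and induced 2 with uninduced 3 (0.19) correlated about as highly, so the correlations do not tell numbers 2 and 3 apart. Replicate 1 correlated below 0 with other numbers. Deviations within a group add up to 0, so on balance this follows from the positive correlation of the replicate 1 pair and adds nothing to it. Alternatives were a replicate block, replicate 1 as batch, centring on the median, quantile normalization, a filter at the median level, averaging or keeping every probe set, trended and robust variance, pseudocounts of 1 and 64, and leaving out each array or both replicate 1 arrays. The mean of uninduced replicates 2 and 3 as 1 replicate was chosen after seeing the data. Plots used matplotlib 3.10.9.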

Additional observations from a re-analysis of the deposited data

How the results depend on the processing

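The limits lie in the number of arrays and in the replicate 1 arrays, most of all the uninduced one. The count of genes past the threshold was 34 of 18193, and it was 0 with the replicate block (3269 at an unadjusted p under 0.05), 742 with the filter at the median level, 550 with trended and robust variance, 0 with a pseudocount of 1, 255 with a pseudocount of 64, 1477 without both replicate 1 arrays, from 0 to 1453 without single arrays, and 0 with the mean of uninduced replicates 2 and 3 (1991 unadjusted). Of the calls 21 of 34 were higher, with 24 of 30 under median centring and 6 of 25 with replicate 1 as a batch. Of the 36 nucleotide genes 1 passed; the count was 0 with the replicate block, median centring, all probe sets, a pseudocount of 1, replicate 1 as a batch and the mean of uninduced replicates 2 and 3, 6 with the filter and with trended variance, 2 with a pseudocount of 64, 11 without both replicate 1 arrays, and from 0 to 12 without single arrays. Among the 36 genes the block changed only the call of Cda. Of the other nucleotide genes 0 passed; the count was 4 with the filter, 3 with trended variance, 1 with a pseudocount of 64, 9 without both replicate 1 arrays and from 0 to 8 without single arrays. The median difference of the 36 genes stayed from 0.40 to 0.56 without single arrays. That of the pyrimidine genes was 0.39, from 0.28 to 0.62 without single arrays. That of the dNTP genes was 0.53, and 0.73 without both replicate 1 arrays. That of salvage and breakdown genes was 0.17, with 0.24 under median centring, 0.30 without both replicate 1 arrays and from 0.11 to 0.28 without single arrays. The sign of 30 of the 36 genes held under all 18 alternatives. With the mean of all probe sets the sign turned for Prps2 (0.12), Paics (-0.080), Gmps (-0.082) and Uck2 (0.013). The log2 difference of Paics also turned with quantile normalization (-0.0063) and without both replicate 1 arrays (-0.074), and ranged from -0.071 to 0.047 without single arrays. Dut turned under median centring (0.0041). Without single arrays Adss ranged from -0.047 to 0.15 and Uck2 from -0.33 to 0.043. The cause of these changes was not tested.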
